A study of Mus musculus with 36 samples.

Results

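The MHC class I presentation machinery is represented here by 10 genes, H2-K1, H2-D1, B2m, Tap1, Tap2, Tapbp, Erap1, Nlrc5, Psmb8 and Psmb9. They were chosen by name as a known pathway, with earlier results of these data known and by no threshold on their values, and are 10 of the 53299 symbols of the deposited count table. All 10 passed the filter on low counts and were among the 12463 genes tested.

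The study measured RNA of cultured mouse bone marrow dendritic cells of 2 kinds, cDC1 (FLT3LcDC1 in the labels) and cDC2 (FLT3LcDC2), under several adjuvant treatments. FLT3LcDC names cells grown with FLT3 ligand, the growth factor of dendritic cell precursors. The groups used are cDC2 with LPS_PGPC, LPS, PGPC or Nothing, and cDC1 with LPS_PGPC, LPS, PGPC or Nothing. LPS, the endotoxin of Gram-negative bacteria, acts through TLR4. PGPC is an oxidized phospholipid, LPS_PGPC is the pair of agents together, and cells with Nothing are the untreated control. Each group has 3 libraries, replicates 4, 5 and 6 in cDC2 and 1, 2 and 3 in cDC1. The exception is cDC2 with PGPC, where replicate 6 amounts to 3805 counts and was left out together with all alum libraries, so 23 libraries in 8 groups remain. The labels give no strain, age, dose, time or sort for the cells, and the cultures are a model of dendritic cells outside the animal. The series calls the replicates biological and does not say whether they came from separate animals or cultures, so the tests measure the spread between these libraries.

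Levels are CPM, counts scaled to a common library total with trimmed mean of M values (TMM) factors. Differences are log2 fold changes with their standard error (SE) from edgeR's quasi-likelihood test, and a gene was called when its Benjamini-Hochberg adjusted p over all 12463 genes was under 0.05. Library totals ran from 243870 to 16601064 counts, the lowest in replicate 6 of untreated cDC2. Symbols of the ribosomal RNA locus took 41.3 to 72.4% of counts in untreated cDC1, 52.3 to 61.0% in cDC2 with PGPC, and between 7.74 and 39.6% in the libraries of the other groups. The summed level of the 11 cDC2 markers was 1205 to 1766 CPM in untreated cDC2, against 749.5 to 1180 CPM in untreated cDC1, and between untreated cDC2 and cDC1 3 of the 9 tested were higher and 1 was lower (10.2% of all tested genes were called in either direction). Single markers and those of other lists did not all follow the label. Untreated cDC2 had 1098 ± 228 CPM of Sirpa, a cDC2 surface marker, against 358 ± 142 CPM in untreated cDC1 (SD, n = 3 each). Flt3, the receptor of the growth factor, stood at 12.5 ± 4.36 CPM in untreated cDC2, against 352 ± 107 CPM in untreated cDC1. Irf4, a cDC2 transcription factor, stood at 2.61 ± 2.72 CPM in untreated cDC2, against 24.9 ± 10.7 CPM in untreated cDC1, and Cd209a was at or near 0 in all cDC2 groups. The summed level of 12 monocyte or macrophage markers was 2384 to 3332 CPM in untreated cDC2, against 847 to 1153 CPM in untreated cDC1. Xcr1, a cDC1 surface marker, was at 0.177 ± 0.191 CPM in untreated cDC1, while the summed level of the 12 cDC1 markers was 202 to 257 CPM in untreated cDC2, against 1282 to 2053 CPM in untreated cDC1. In these bulk samples fewer cells of a type and less RNA per cell cannot be told apart.

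MHC class I molecules show peptides from inside the cell to CD8 T cells. Peptides are cut by the proteasome, whose inducible subunits make the immunoproteasome, carried into the endoplasmic reticulum by the TAP transporter, trimmed there by ERAP1, and loaded with the help of tapasin onto a heavy chain paired with beta-2 microglobulin. In dendritic cells this route primes CD8 T cells, and its genes are known targets of interferon, NF-kB and the transactivator NLRC5, which acts on class I promoters through a conserved module of W/S, X and Y boxes.

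Of the 10 genes, 7 lie on chromosome 17 within the mouse MHC or beside it (GENCODE M21, GRCm38). H2-K1 is at chr17:33996017-34000347 and H2-D1 at chr17:35262730-35267499, while Tapbp is at chr17:33915899-33929292. Psmb9, Tap1, Psmb8 and Tap2 follow each other at chr17:34181987-34187764, chr17:34187553-34197225, chr17:34197721-34201454 and chr17:34203527-34216321. The annotated starts of Tap1 and Psmb9 are 211 bases apart on opposite strands. B2m is at chr2:122147686-122153083, Erap1 at chr13:74639568-74693201 and Nlrc5 at chr8:94434356-94527272.

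RefSeq promoter windows of 300 bases, 250 before and 50 after the start site (GRCm38.p6), were matched by symbol for 8 of the 10 genes, with 2 windows for H2-K1. The windows of both heavy chains and B2m are shown for the boxes they share, and that of Tap1 for its overlap with Psmb9. That of Erap1 is shown for its match to the interferon-type pattern used here. Capitals mark matches, on either strand, to an NF-kB-like motif (GGGA, any 4 bases, CC), the core of an interferon-stimulated response element (ISRE; GAAA, any 2 bases, GAAA), the core of the X2 box (TGACG) and the core of the Y box (ATTGG). The windows are chr17:34000284-34000583 on the minus strand for H2-K1, chr17:35262844-35263143 on the plus strand for H2-D1, chr2:122147437-122147736 on the plus strand for B2m, chr17:34187306-34187605 on the plus strand for Tap1 and chr13:74639603-74639902 on the plus strand for Erap1, each written 5′ to 3′ on the strand of its gene.
H2-K1: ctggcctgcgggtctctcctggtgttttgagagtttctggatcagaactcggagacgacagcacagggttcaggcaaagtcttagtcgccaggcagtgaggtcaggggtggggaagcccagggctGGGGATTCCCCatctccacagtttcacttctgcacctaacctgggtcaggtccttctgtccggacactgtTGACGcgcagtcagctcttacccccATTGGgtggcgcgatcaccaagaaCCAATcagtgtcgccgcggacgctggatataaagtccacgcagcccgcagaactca
H2-D1: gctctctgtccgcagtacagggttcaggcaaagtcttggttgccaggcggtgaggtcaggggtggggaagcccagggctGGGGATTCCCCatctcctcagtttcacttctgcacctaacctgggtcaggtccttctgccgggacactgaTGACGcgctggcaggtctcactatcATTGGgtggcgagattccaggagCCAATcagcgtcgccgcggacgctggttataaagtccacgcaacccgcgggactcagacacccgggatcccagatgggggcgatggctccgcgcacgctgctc
B2m: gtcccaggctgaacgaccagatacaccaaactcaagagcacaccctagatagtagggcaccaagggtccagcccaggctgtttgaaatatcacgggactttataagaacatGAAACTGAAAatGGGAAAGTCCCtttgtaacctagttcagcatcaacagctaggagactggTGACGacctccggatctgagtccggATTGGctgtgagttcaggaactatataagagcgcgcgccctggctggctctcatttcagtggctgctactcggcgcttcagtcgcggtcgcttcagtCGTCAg
Tap1: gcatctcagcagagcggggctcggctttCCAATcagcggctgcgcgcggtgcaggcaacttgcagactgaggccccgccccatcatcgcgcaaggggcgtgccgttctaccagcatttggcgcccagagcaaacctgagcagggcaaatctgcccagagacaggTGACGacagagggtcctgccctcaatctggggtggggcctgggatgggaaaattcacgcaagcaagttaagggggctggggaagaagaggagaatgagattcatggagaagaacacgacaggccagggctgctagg
Erap1: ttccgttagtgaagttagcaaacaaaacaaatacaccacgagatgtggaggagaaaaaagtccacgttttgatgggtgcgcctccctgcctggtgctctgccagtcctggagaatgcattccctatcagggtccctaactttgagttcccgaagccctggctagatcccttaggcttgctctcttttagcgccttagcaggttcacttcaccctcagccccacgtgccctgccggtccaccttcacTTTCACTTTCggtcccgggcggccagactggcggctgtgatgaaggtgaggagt

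The NF-kB-like motif was in the windows of H2-K1, H2-D1 and B2m and in 20.7% of all 32851 RefSeq windows of that length. In each of these windows the matches on the 2 strands overlap each other. The ISRE core was in the windows of B2m and Erap1 and in 3.44% of all windows. That pattern is strict. The H2-K1 and H2-D1 windows both hold agtttcacttct, which resembles the core on the other strand without matching it and is not marked. A missing match therefore does not show that a window lacks an interferon-type element. The X2 core was in those of H2-K1, H2-D1, B2m, Tap1 and Psmb9 and in 20.8% of all windows. The Y core was in those of H2-K1, H2-D1, B2m, Tap1, Psmb9 and Tapbp and in 37.4% of all windows. In H2-K1, H2-D1 and B2m the X2 and Y cores stood on the gene's strand with their first letters 25 bases apart. That spacing, which was chosen after the windows were seen, was found in 31 of the 32851 windows (0.0944%). The Tap1 and Psmb9 windows share 275 bases, so their X2 and Y matches are the same letters read from either strand. None of these 4 motifs was found in the Psmb8 window. A match describes letters and is not evidence of a bound factor, and the mouse strain behind the libraries may differ from the reference.

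**Figure D1:**
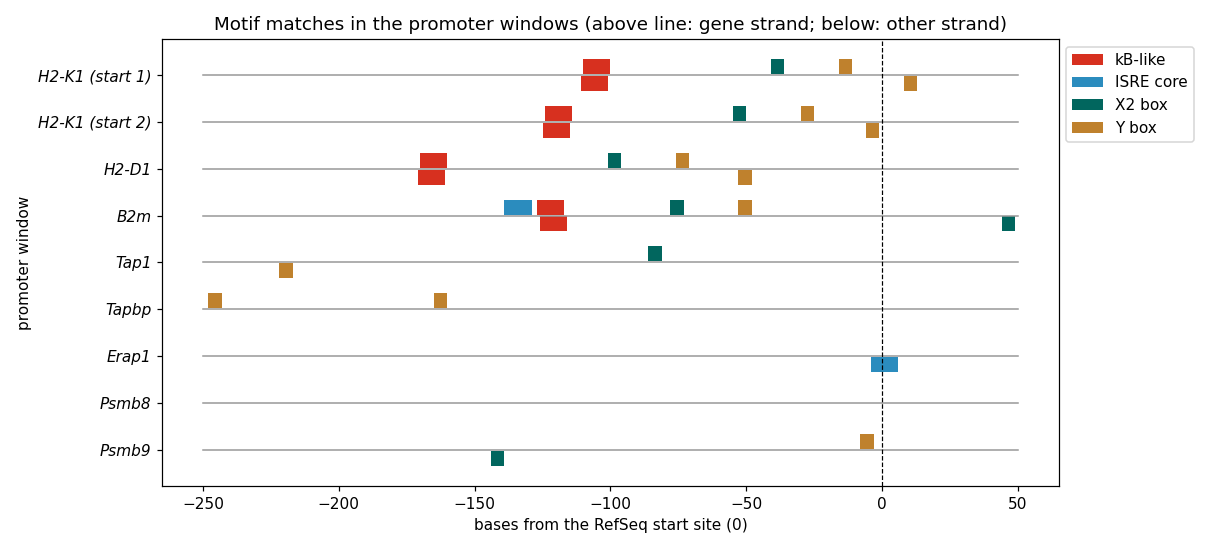
Positions of the matches to 4 motifs in the RefSeq promoter windows of 8 class I pathway genes, with 2 start sites for H2-K1. The x axis gives bases from the start site (dashed line), boxes above a line are on the gene's strand and boxes below it on the other strand; the X2 and Y boxes of H2-K1, H2-D1 and B2m have the same spacing of 25 bases.

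LPS was followed by higher levels of most of the machinery in cDC2 and of part of it in cDC1. With LPS against Nothing 8 of the 10 genes rose in cDC2, where 5.82% of all tested genes rose, and 5 of 10 rose in cDC1, where 8.58% of all tested genes rose. None of the 10 fell. The median log2 fold change of the 10 genes was 2.44 in cDC2, against a median of 0.03 over all tested genes, and 0.99 in cDC1, against -0.12 over all tested genes. The cDC1 count was 3 without LPS replicate 2, LPS replicate 3 or Nothing replicate 1, and 2 without Nothing replicate 3. With LPS_PGPC against PGPC, a comparison of other libraries of the same cells, 6 of 10 rose in cDC2 (4.43% of all tested genes rose) and 8 of 10 in cDC1 (9.79%). The medians of the 10 genes were 2.05 and 2.03, against 0.12 and -0.07 over all tested genes, in cDC2 and cDC1 in that order. With LPS against Nothing 9 of 10 genes stood higher without overlap in cDC2 (14.6% of all tested genes) and 6 of 10 in cDC1 (18.9%). With LPS_PGPC against PGPC 10 of 10 did so in cDC2 (24.2%) and 9 of 10 in cDC1 (15.8%). Standing apart without a call is therefore weak evidence for a single gene. In a fit of all 36 libraries, which takes in the alum libraries and the one of 3805 counts, 0 of the 10 genes were called in any comparison. Markers of other cells moved in the same comparisons. With LPS against Nothing in cDC1, where 9.36% of all tested genes fell, 9 of 12 monocyte or macrophage markers fell and 2 rose, and their summed level was 494.5 to 1301 CPM with LPS (F13a1 at 0), against 846.8 to 1153 CPM with Nothing. Of the 6 tested neutrophil or granulocyte precursor markers 5 fell there, and the list summed to 0 to 6.96 CPM with LPS, against 47 to 199 CPM with Nothing. In cDC2 4 of 5 conventional dendritic cell markers rose with LPS (summed level 618.5 to 1178 CPM, against 187 to 365 CPM with Nothing), and of 12 monocyte or macrophage markers 2 rose and 2 fell. Mast cell or basophil markers summed to 0.91 to 2.9 CPM in cDC1 with LPS_PGPC, against 50.5 to 77.9 CPM in cDC1 with PGPC, and neutrophil markers to 1.16 to 70.3 CPM, against 259 to 1150 CPM. The ribosomal RNA locus took 14 to 26.1% of counts in cDC1 with LPS, against 41.3 to 72.4% in untreated cDC1. The part of these shifts in the class I results was not tested. The plot of levels by library shows all values given below.

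**Figure D2:**
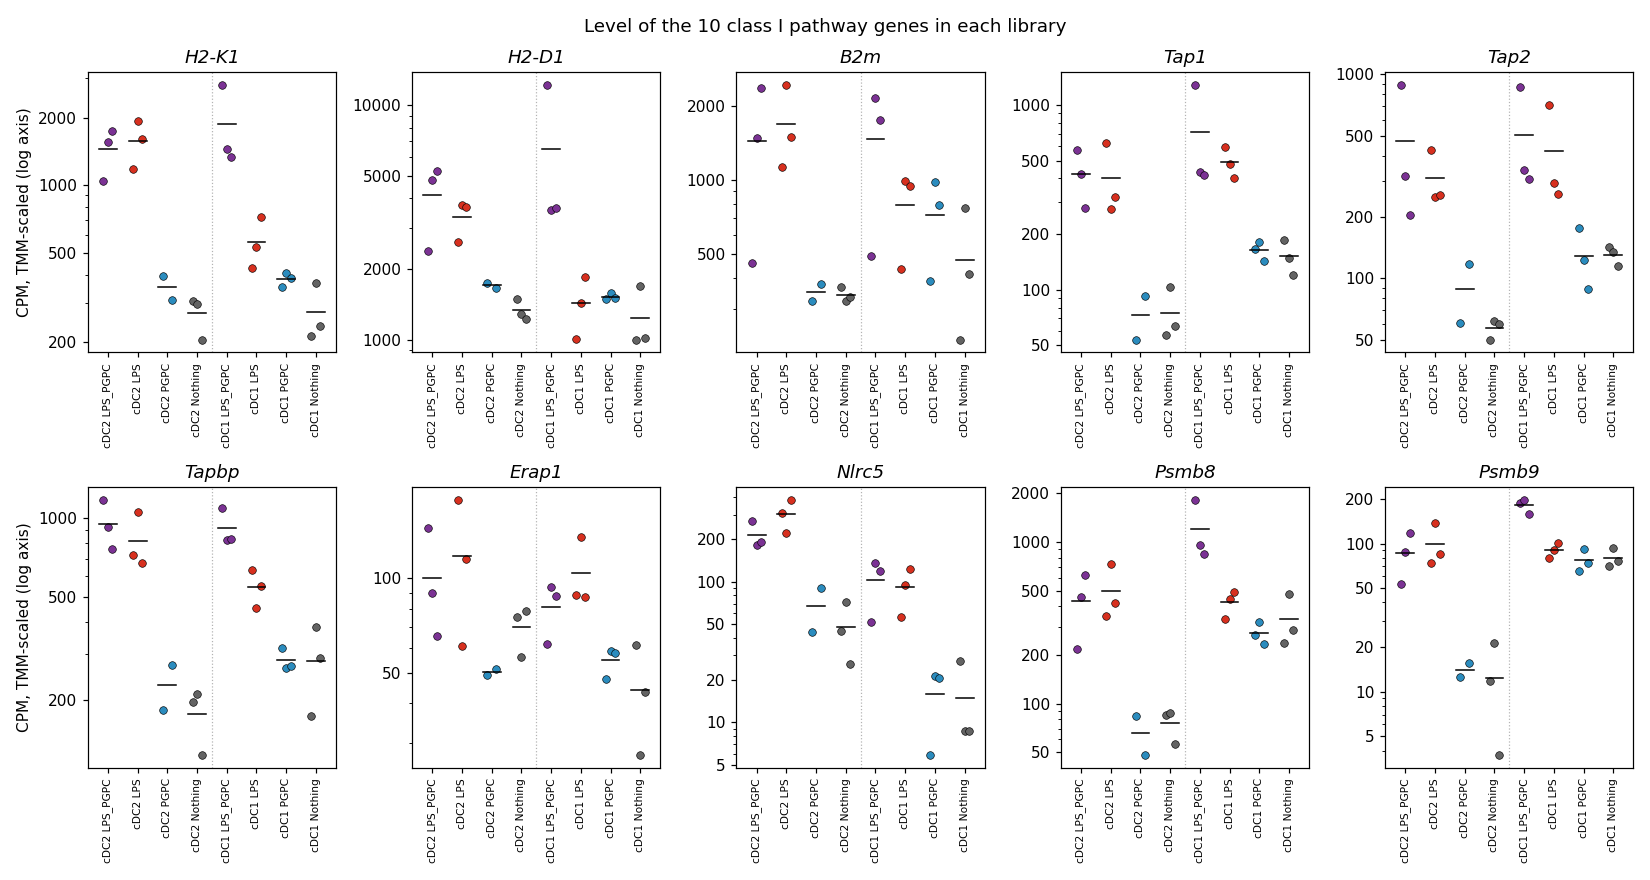
Level of each of the 10 genes in each of the 23 libraries, as TMM-scaled CPM on a log axis whose range differs between panels. Points are libraries, horizontal bars are group means, and the dotted line divides cDC2 from cDC1; the LPS_PGPC and LPS libraries lie above the PGPC and Nothing libraries in most panels, and in cDC1 the Psmb8 and Psmb9 points with LPS overlap those with Nothing.

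The heavy chains hold the peptide at the cell surface. H2-K1, which encodes the H2-K heavy chain, had 1180, 1929 and 1608 CPM in replicates 4, 5 and 6 of cDC2 with LPS, against 306.2, 296 and 205.8 CPM in untreated cDC2. In cDC1 it had 426.1, 533.2 and 725.6 CPM in replicates 1, 2 and 3 with LPS, against 213.8, 365.8 and 237.5 CPM with Nothing. The groups did not overlap in either cell type, and the LPS libraries of cDC2 were all above those of cDC1. The log2 fold change was 2.54 ± 0.38 in cDC2 (edgeR adjusted p = 6.63e-05) and 1.04 ± 0.36 in cDC1 (edgeR adjusted p = 0.0446). The cDC1 call was lost without LPS replicate 2 (1.00, edgeR adjusted p = 0.112), LPS replicate 3 (0.70, 0.237), Nothing replicate 1 (0.90, 0.138) or Nothing replicate 3 (0.94, 0.13).

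With both agents H2-K1 had 1039, 1554 and 1733 CPM in cDC2 with LPS_PGPC, against 395 and 310 CPM in cDC2 with PGPC. In cDC1 it had 2801, 1453 and 1340 CPM with LPS_PGPC, against 352.9, 407.4 and 388 CPM with PGPC. The LPS_PGPC libraries stood above all PGPC libraries in both cell types, with log2 fold changes of 2.03 ± 0.43 in cDC2 (edgeR adjusted p = 0.00438) and 2.28 ± 0.37 in cDC1 (edgeR adjusted p = 0.000129).

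H2-D1, which encodes the H2-D heavy chain, had 2596, 3740 and 3681 CPM in cDC2 with LPS, against 1487, 1290 and 1224 CPM in untreated cDC2. In cDC1 it had 1006, 1437 and 1847 CPM with LPS, against 999.9, 1697 and 1015 CPM with Nothing. The groups were apart in cDC2 but the difference missed the threshold there (1.32 ± 0.42, edgeR adjusted p = 0.0517), and in cDC1 they overlapped almost wholly (0.21 ± 0.42, edgeR adjusted p = 0.778). The cDC2 difference was called by DESeq2 (1.31, adjusted p = 0.0176) and by edgeR without LPS replicate 4 (1.47, edgeR adjusted p = 0.041). With both agents the cDC2 libraries with LPS_PGPC had 2390, 4801 and 5216 CPM, against 1746 and 1655 CPM with PGPC. Those groups too were apart, in a comparison where 24.2% of all tested genes stood higher without overlap. The difference of 1.28 ± 0.49 was not called (edgeR adjusted p = 0.121). In cDC1 H2-D1 had 12210, 3569 and 3636 CPM with LPS_PGPC, against 1485, 1583 and 1506 CPM with PGPC, and rose by 2.09 ± 0.43 on the log2 scale (edgeR adjusted p = 0.00159). Replicate 1 of cDC1 with LPS_PGPC was over all the other libraries for H2-D1, and it held the highest level of the 23 libraries for 4 of the 10 genes, H2-K1, H2-D1, Tap1 and Psmb8.

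The counts of H2-K1 and H2-D1 are not whole numbers in 22 of 23 libraries. The authors' counting divides a read between the genes it matches, and which genes shared these reads is not given. Counts that are not whole were not particular to the heavy chains. They were found in 17 libraries for Erap1, 16 for Tap2, 10 for Tapbp, 8 for Tap1, 7 for Psmb9 and 2 for Psmb8. B2m and Nlrc5 had whole counts throughout. The split of reads between H2-K1, H2-D1 and similar genes is therefore uncertain. Within a library the ratio of H2-K1 to H2-D1 counts was 0.437 to 0.516 in cDC2 with LPS, against 0.168 to 0.229 with Nothing, and 0.371 to 0.424 in cDC1 with LPS, against 0.214 to 0.234 with Nothing. It was 0.324 to 0.435 in cDC2 with LPS_PGPC, against 0.188 to 0.227 with PGPC, and 0.23 to 0.407 in cDC1 with LPS_PGPC, against 0.238 to 0.258 with PGPC. The ratio was thus higher in every LPS library than in any untreated library of its cell type, while in cDC1 with LPS_PGPC replicate 1 lay below all PGPC libraries. These ratios were chosen after the levels were seen and are given as a description.

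**Figure D3:**
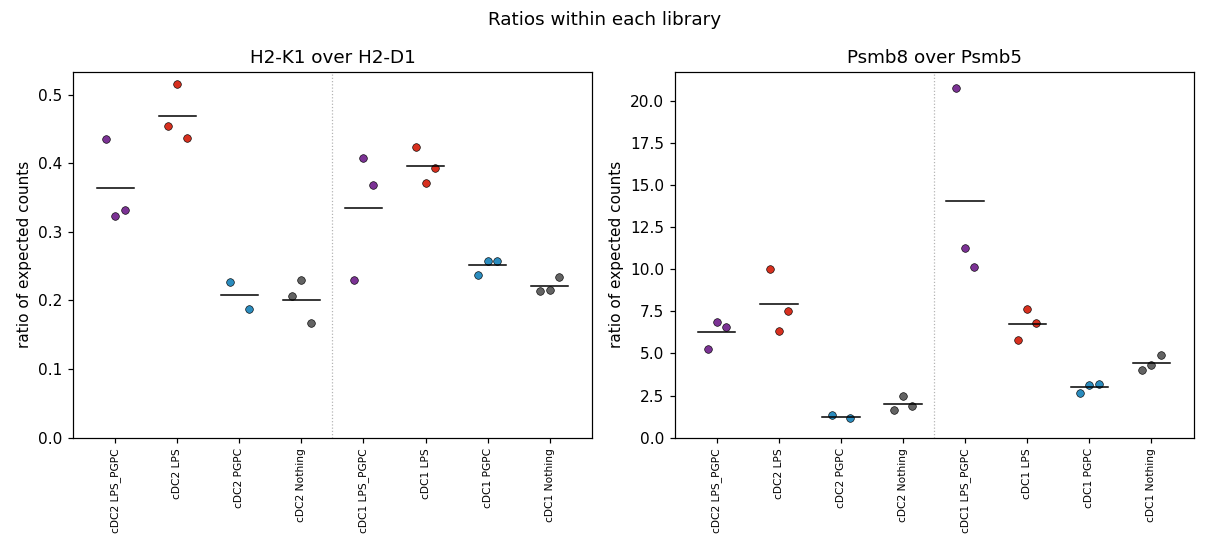
Ratio of H2-K1 to H2-D1 expected counts (left) and of Psmb8 to Psmb5 expected counts (right) in each of the 23 libraries, on linear axes from 0. Points are libraries and horizontal bars group means; the H2-K1 to H2-D1 ratio is 0.371 to 0.516 in all LPS libraries and 0.168 to 0.234 in all Nothing libraries.

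B2m encodes beta-2 microglobulin, the light chain that pairs with class I heavy chains. It had 1126, 2439 and 1498 CPM in cDC2 with LPS, against 367.3, 323.9 and 336.8 CPM in untreated cDC2, and rose by 2.30 ± 0.58 on the log2 scale (edgeR adjusted p = 0.01). That call was lost without LPS replicate 5 (1.94, edgeR adjusted p = 0.0538), Nothing replicate 4 (2.29, 0.0578) or Nothing replicate 5 (2.26, 0.0533). In cDC1 B2m had 436.3, 996.2 and 949.9 CPM with LPS, against 225.8, 774.4 and 417.8 CPM with Nothing. The cDC1 groups overlapped, and the difference of 0.75 ± 0.55 was not called (edgeR adjusted p = 0.369). With both agents B2m had 462.7, 1484 and 2357 CPM in cDC2 with LPS_PGPC, against 324.4 and 380.6 CPM with PGPC, and 493.9, 2152 and 1750 CPM in cDC1 with LPS_PGPC, against 389.7, 982.2 and 789.8 CPM with PGPC. The cDC2 groups were apart and the cDC1 groups overlapped. Neither difference was called (2.03 ± 0.66, edgeR adjusted p = 0.0656 in cDC2, and 1.02 ± 0.55, adjusted p = 0.218 in cDC1), and the cDC2 one was called without LPS_PGPC replicate 4 (2.45, edgeR adjusted p = 0.0243). In all 4 cDC1 groups replicate 1 had the lowest B2m level, in LPS_PGPC replicate 1 beside the highest H2-D1 level.

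Tap1 and Tap2 encode the paired chains of the TAP peptide transporter. Tap1 had 621.1, 274.8 and 316 CPM in cDC2 with LPS, against 57.06, 102.8 and 63.61 CPM in untreated cDC2, and 593.6, 477.7 and 402.4 CPM in cDC1 with LPS, against 185.6, 148.2 and 120.8 CPM with Nothing. Tap2 had 428.1, 251.1 and 255.3 CPM in cDC2 with LPS, against 50.1, 61.98 and 59.87 CPM with Nothing, and 704.8, 292.9 and 259.6 CPM in cDC1 with LPS, against 142, 134.8 and 114.7 CPM with Nothing. No LPS library overlapped an untreated library for either gene in either cell type. Tap1 rose by 2.42 ± 0.46 in cDC2 (edgeR adjusted p = 0.000884) and by 1.70 ± 0.44 in cDC1 (edgeR adjusted p = 0.00838) on the log2 scale. Tap2 rose by 2.45 ± 0.54 in cDC2 (edgeR adjusted p = 0.00332) and by 1.69 ± 0.51 in cDC1 (edgeR adjusted p = 0.0231). The cDC1 call of Tap2 was lost without LPS replicate 1 (1.08, edgeR adjusted p = 0.19) or without Nothing replicate 1 (1.75, 0.0522), 2 (1.71, 0.0673) or 3 (1.59, 0.0758).

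With both agents Tap1 had 567.2, 421.9 and 276.5 CPM in cDC2 with LPS_PGPC, against 53.7 and 92.99 CPM with PGPC, and 1289, 433.4 and 418.9 CPM in cDC1 with LPS_PGPC, against 167, 180.4 and 142.4 CPM with PGPC. Tap2 had 890.8, 319.2 and 204 CPM in cDC2 with LPS_PGPC, against 60.27 and 117.1 CPM with PGPC, and 868.7, 338.4 and 308.6 CPM in cDC1 with LPS_PGPC, against 176, 123.1 and 88.51 CPM with PGPC. Groups were again apart for both genes. Tap1 rose by 2.54 ± 0.54 in cDC2 (edgeR adjusted p = 0.00449) and by 2.13 ± 0.44 in cDC1 (0.00169), and Tap2 by 2.43 ± 0.62 in cDC2 (0.0171) and by 1.97 ± 0.51 in cDC1 (0.00982). Replicate 1 in cDC1 and replicate 4 in cDC2 lay highest for both genes with LPS_PGPC. The Tap2 calls were lost without LPS_PGPC replicate 1 in cDC1 (1.37, edgeR adjusted p = 0.0673) and, in cDC2, without LPS_PGPC replicate 4 (1.58, 0.101), PGPC replicate 4 (2.04, 0.256) or PGPC replicate 5 (2.99, 0.0704).

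Tapbp encodes tapasin, which bridges TAP and empty class I molecules. It had 722, 1054 and 674.1 CPM in cDC2 with LPS, against 196.9, 211.3 and 123.5 CPM with Nothing, and 631.4, 451.1 and 549.3 CPM in cDC1 with LPS, against 173.6, 383.4 and 289.5 CPM with Nothing. The groups were apart in both cell types. Tapbp rose by 2.19 ± 0.36 in cDC2 (edgeR adjusted p = 0.000193), while the cDC1 difference of 0.94 ± 0.34 missed the threshold (edgeR adjusted p = 0.0575) and passed it without Nothing replicate 2 (1.22, 0.0371). With both agents it had 1176, 926.5 and 759.9 CPM in cDC2 with LPS_PGPC, against 183 and 273.8 CPM with PGPC, and 1092, 823.4 and 833.2 CPM in cDC1 with LPS_PGPC, against 316.5, 266.4 and 271.4 CPM with PGPC. Every LPS_PGPC library was higher than every PGPC library of its cell type, and both differences were called (2.07 ± 0.41 in cDC2, edgeR adjusted p = 0.00289, and 1.69 ± 0.35 in cDC1, 0.00156).

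Erap1 encodes the aminopeptidase that trims peptides in the endoplasmic reticulum, and it had the smallest log2 fold change of the 10 genes with LPS in cDC2. It had 177.7, 60.88 and 115.4 CPM in cDC2 with LPS, against 75.28, 56.04 and 78.58 CPM with Nothing, and 88.56, 135.8 and 87.13 CPM in cDC1 with LPS, against 61.59, 27.46 and 43.59 CPM with Nothing. The groups overlapped in cDC2 and were apart in cDC1. The cDC1 difference was called (1.25 ± 0.40, edgeR adjusted p = 0.0327) and the cDC2 difference was not (0.77 ± 0.41, edgeR adjusted p = 0.314), but the difference between the cell types was itself not called (-0.48 ± 0.57, edgeR adjusted p = 0.777). The cDC1 call was lost without LPS replicate 2 (0.92, edgeR adjusted p = 0.179), LPS replicate 3 (1.24, 0.0631), Nothing replicate 2 (0.98, 0.152) or Nothing replicate 3 (1.24, 0.0818). With both agents Erap1 had 145.1, 89.81 and 65.41 CPM in cDC2 with LPS_PGPC, against 49.31 and 51.66 CPM with PGPC, and 62.01, 94.04 and 88.04 CPM in cDC1 with LPS_PGPC, against 47.92, 58.95 and 57.9 CPM with PGPC. The LPS_PGPC libraries were higher throughout, but neither difference was called (0.99 ± 0.47, edgeR adjusted p = 0.228 in cDC2, and 0.57 ± 0.39, adjusted p = 0.352 in cDC1). The reads carry no strand, and 834 bases of Erap1 exons overlap those of Cast on the opposite strand, which held 13625 counts over the 23 libraries, against 9419 for Erap1.

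Psmb8 and Psmb9 encode the inducible beta-5i and beta-1i subunits that turn a proteasome into an immunoproteasome, and in edgeR's test they were the members whose response to LPS differed between the cell types. Psmb8 had 348.2, 727.3 and 420.7 CPM in cDC2 with LPS, against 84.93, 87.81 and 56.13 CPM with Nothing. In cDC1 it had 336.2, 442.9 and 492.8 CPM with LPS, against 236.9, 479.6 and 285 CPM with Nothing. The LPS libraries of both cell types covered similar levels, while the untreated cDC2 libraries lay below all untreated cDC1 libraries. Psmb8 rose by 2.68 ± 0.44 in cDC2 (edgeR adjusted p = 0.000224), and in cDC1 the groups overlapped (0.34 ± 0.41, edgeR adjusted p = 0.611).

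Psmb9 had 73.73, 137.9 and 85.11 CPM in cDC2 with LPS, against 11.79, 21.44 and 3.742 CPM with Nothing. In cDC1 it had 79.9, 89.76 and 100.4 CPM with LPS, against 70.14, 93.89 and 76.74 CPM with Nothing. Again the untreated cDC2 libraries lay below all untreated cDC1 libraries and below all LPS libraries. Psmb9 rose by 2.78 ± 0.42 in cDC2 (edgeR adjusted p = 8.55e-05), and in cDC1 the difference of 0.16 ± 0.38 was not called (edgeR adjusted p = 0.812). The lowest value, in replicate 6 of untreated cDC2, was 1 count in the library of 243870 counts. The 3 untreated cDC2 libraries held 128 Psmb9 counts together.

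With both agents Psmb8 had 217.4, 457 and 622.7 CPM in cDC2 with LPS_PGPC, against 83.83 and 48.22 CPM with PGPC, and 1826, 956.9 and 848.9 CPM in cDC1 with LPS_PGPC, against 266.7, 320.5 and 233.3 CPM with PGPC. Psmb9 had 53.22, 87.98 and 118.7 CPM in cDC2 with LPS_PGPC, against 12.6 and 15.5 CPM with PGPC, and 188.7, 197.2 and 159.2 CPM in cDC1 with LPS_PGPC, against 65.47, 91.84 and 73.33 CPM with PGPC. All 4 groups with LPS_PGPC were above their PGPC libraries. Psmb8 rose by 2.69 ± 0.52 in cDC2 (edgeR adjusted p = 0.00208) and by 2.15 ± 0.43 in cDC1 (0.00111), and Psmb9 by 2.65 ± 0.50 in cDC2 (0.00181) and by 1.24 ± 0.38 in cDC1 (0.0257). The cDC1 call of Psmb9 was lost without LPS_PGPC replicate 2 (1.18, edgeR adjusted p = 0.069), PGPC replicate 1 (1.12, 0.0843) or PGPC replicate 3 (1.20, 0.0702). Within each library the ratio of Psmb8 to Psmb5, the constitutive subunit that Psmb8 replaces, was 6.34 to 10 in cDC2 with LPS, against 1.64 to 2.45 with Nothing, and 5.77 to 7.65 in cDC1 with LPS, against 4.01 to 4.89 with Nothing. The ratio was 5.28 to 6.89 in cDC2 with LPS_PGPC, against 1.16 to 1.33 with PGPC, and 10.1 to 20.8 in cDC1 with LPS_PGPC, against 2.68 to 3.17 with PGPC. These are count ratios between genes of different length, so they are read only between libraries. The groups of these comparisons did not overlap in the ratio, in cDC1 with LPS included. There Psmb8 itself overlapped and was not called (0.34), and Psmb5 was not called either. Psmb5 was named after the values were seen, and the share of other gene pairs without overlap was not measured. The ratios are therefore given as a description. The ratio of Psmb9 to Psmb6, the constitutive subunit that Psmb9 replaces, did overlap in cDC1. It was 0.951 to 1.06 with LPS, against 0.571 to 1.71 with Nothing, and 0.478 to 1.11 with LPS_PGPC, against 0.416 to 0.873 with PGPC. In cDC2 it was 0.744 to 0.894 with LPS, against 0.0476 to 0.34 with Nothing, and 0.693 to 1.07 with LPS_PGPC, against 0.14 to 0.529 with PGPC. The value of 0.0476, in replicate 6, rests on 1 Psmb9 count.

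The 212 bases shared by the exons of Tap1 and Psmb9 on opposite strands cannot be assigned to either gene without strand. Tap1, whose start lies 211 bases from that of Psmb9, rose with LPS in cDC1, and Psmb9 was not called there. The difference between the 2 genes was not tested.

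Nlrc5 encodes the transactivator of class I promoters and had the largest log2 fold change of the 10 genes in cDC1 with LPS. It had 308.8, 222 and 381.5 CPM in cDC2 with LPS, against 44.47, 71.8 and 26.19 CPM with Nothing, and 56.42, 94.48 and 123 CPM in cDC1 with LPS, against 27.37, 8.731 and 8.627 CPM with Nothing. The groups were apart in both cell types, and the LPS levels of cDC1 overlapped the untreated levels of cDC2. Nlrc5 rose by 2.61 ± 0.55 in cDC2 (edgeR adjusted p = 0.00223) and by 2.72 ± 0.56 in cDC1 (edgeR adjusted p = 0.00128). With both agents it had 270.7, 183.3 and 192.6 CPM in cDC2 with LPS_PGPC, against 43.83 and 89.55 CPM with PGPC, and 51.61, 135.8 and 119.3 CPM in cDC1 with LPS_PGPC, against 5.891, 21.49 and 20.66 CPM with PGPC. The LPS_PGPC libraries again lay above the PGPC libraries. The cDC1 difference was called (2.69 ± 0.54, edgeR adjusted p = 0.00118) and the cDC2 difference was not (1.72 ± 0.61, edgeR adjusted p = 0.0989).

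The cDC2 counts of LPS_PGPC against PGPC rest on 2 PGPC libraries. Without PGPC replicate 4 the call of 1 gene, Psmb8, was left, and without PGPC replicate 5 those of 3 genes, Tap1, Tapbp and Psmb9. Without replicate 4 the lost values were 2.24 for H2-K1 (edgeR adjusted p = 0.0619), 2.21 for Tap1 (0.136), 1.82 for Tapbp (0.109) and 2.50 for Psmb9 (0.0786). Without replicate 5 they were 1.88 for H2-K1 (edgeR adjusted p = 0.0914) and 2.38 for Psmb8 (0.0704).

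**Figure D4:**
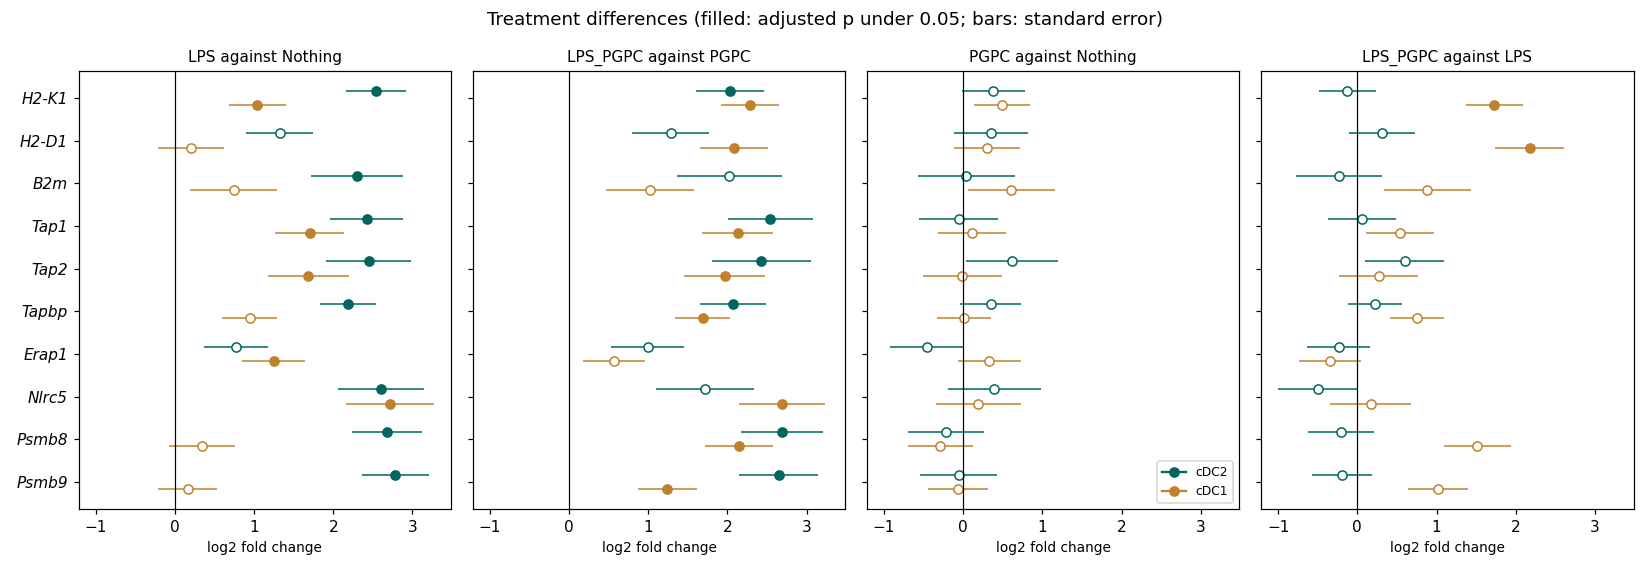
Log2 fold changes of the 10 genes in the 4 treatment comparisons, in cDC2 and cDC1, with bars of 1 standard error. Filled points have an edgeR adjusted p under 0.05; the values with LPS or LPS_PGPC over their controls are positive for all 10 genes, those with PGPC against Nothing lie between -0.46 and 0.62, and in LPS_PGPC against LPS the filled points are H2-K1 and H2-D1 in cDC1.

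PGPC alone gave no call. Against Nothing 0 of the 10 genes were called in cDC2 (0.016% of all tested genes were called in either direction) and 0 in cDC1 (2.08%). None had an unadjusted p under 0.05 in either cell type, and DESeq2 also called 0 of the 10 in both. The log2 fold changes ran from -0.46 for Erap1 to 0.62 for Tap2 in cDC2, and from -0.29 for Psmb8 to 0.61 for B2m in cDC1. Their 95% intervals reached from -1.42 to 1.81 in cDC2 and from -1.14 to 1.74 in cDC1, the widest bounds among the 10 genes, so the missing calls do not show that PGPC left them unchanged. These comparisons share the untreated libraries with those of LPS against Nothing.

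PGPC added to LPS was followed by higher heavy chain levels in cDC1. With LPS_PGPC against LPS 2 of the 10 genes rose in cDC1, where 1.39% of all tested genes rose, and 0 of 10 were called in cDC2, where 0.385% of all tested genes were called. Against the LPS libraries listed above, H2-K1 was 1.73 ± 0.36 higher on the log2 scale (edgeR adjusted p = 0.0119) and H2-D1 2.18 ± 0.43 higher (edgeR adjusted p = 0.00877), and for both genes the cDC1 groups did not overlap. Psmb8 (1.51 ± 0.42, edgeR adjusted p = 0.0599), Psmb9 (1.01 ± 0.38, adjusted p = 0.166) and Tapbp (0.75 ± 0.34, adjusted p = 0.262) were also apart from the LPS libraries without a call, and DESeq2 called Psmb8 as well (1.51, adjusted p = 0.00787). Of the 10 genes 5 stood higher without overlap of libraries, against 13.6% of all tested genes. Being apart without a call is thus weak evidence for a single gene. Nlrc5 had 0.17 ± 0.51 and Tap2 0.27 ± 0.50. Both heavy chain calls were lost, leaving 0 of 10, without LPS_PGPC replicate 1 (H2-K1 1.40, edgeR adjusted p = 0.0526, and H2-D1 1.42, adjusted p = 0.0599), LPS replicate 1 (1.57, 0.0925, and 1.98, 0.0772) or LPS replicate 2 (1.76, 0.0709, and 2.24, 0.05). The summed level of the 5 conventional dendritic cell markers was 2134 to 4439 CPM in cDC1 with LPS_PGPC, against 1424 to 1847 CPM in cDC1 with LPS, and that of the 12 monocyte or macrophage markers 346 to 627 CPM with LPS_PGPC, against 495 to 1301 CPM with LPS. The part of such shifts in the heavy chain result was not tested.

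In cDC2 the log2 fold changes of LPS_PGPC against LPS ran from -0.49 for Nlrc5 to 0.60 for Tap2, 0 had an unadjusted p under 0.05, and DESeq2 called 0. The difference between the cell types was -1.86 ± 0.51 for H2-K1 (edgeR adjusted p = 0.289) and -1.87 ± 0.59 for H2-D1 (edgeR adjusted p = 0.413), and 0 of 10 were called (0.00802% of all tested genes were called), with 4 at an unadjusted p under 0.05. The edgeR test thus does not show that PGPC acted differently on the heavy chains of the cell types. DESeq2 did call 1 of the 10 there, H2-K1 (-1.92, adjusted p = 0.0152), so for that gene the result depends on the test.

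Before treatment the cell types differed in Psmb8, Psmb9 and Nlrc5. Of the 10 genes 3 were called between untreated cDC2 and untreated cDC1, where 10.2% of all tested genes were called. Psmb8 stood at 76.3 ± 17.5 CPM in untreated cDC2, against 334 ± 128 CPM in untreated cDC1 (SD, n = 3 each), and was lower in cDC2 (-2.10 ± 0.44, edgeR adjusted p = 0.00268). Psmb9 stood at 12.3 ± 8.86 CPM in untreated cDC2, against 80.3 ± 12.3 CPM in untreated cDC1, and was lower in cDC2 (-2.48 ± 0.42, edgeR adjusted p = 0.000421). Lower levels in cDC2 were not particular to these 2 genes. Of 19 other tested proteasome genes 7 were lower and 0 higher, where 6.14% of all tested genes were lower. The 19 had a median log2 fold change of -1.27, against -0.097 over all tested genes, and 1 of them was positive. Nlrc5 was at 47.5 ± 22.9 CPM in untreated cDC2, against 14.9 ± 10.8 CPM in untreated cDC1, and was higher in cDC2 (1.85 ± 0.55, edgeR adjusted p = 0.0335), although replicate 6 of cDC2 lay within the cDC1 range. The Nlrc5 call was lost without cDC2 replicate 4 (1.98, edgeR adjusted p = 0.0606), cDC2 replicate 5 (1.42, 0.21), cDC1 replicate 2 (1.55, 0.174) or cDC1 replicate 3 (1.55, 0.122). Tap1 (-1.0 ± 0.44, edgeR adjusted p = 0.153) and Tap2 (-1.19 ± 0.52, adjusted p = 0.149) were lower in every untreated cDC2 library without a call. Of all tested genes 19.8% were lower without overlap there. H2-K1 (-0.01 ± 0.36) and H2-D1 (0.11 ± 0.42) overlapped.

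**Figure D5:**
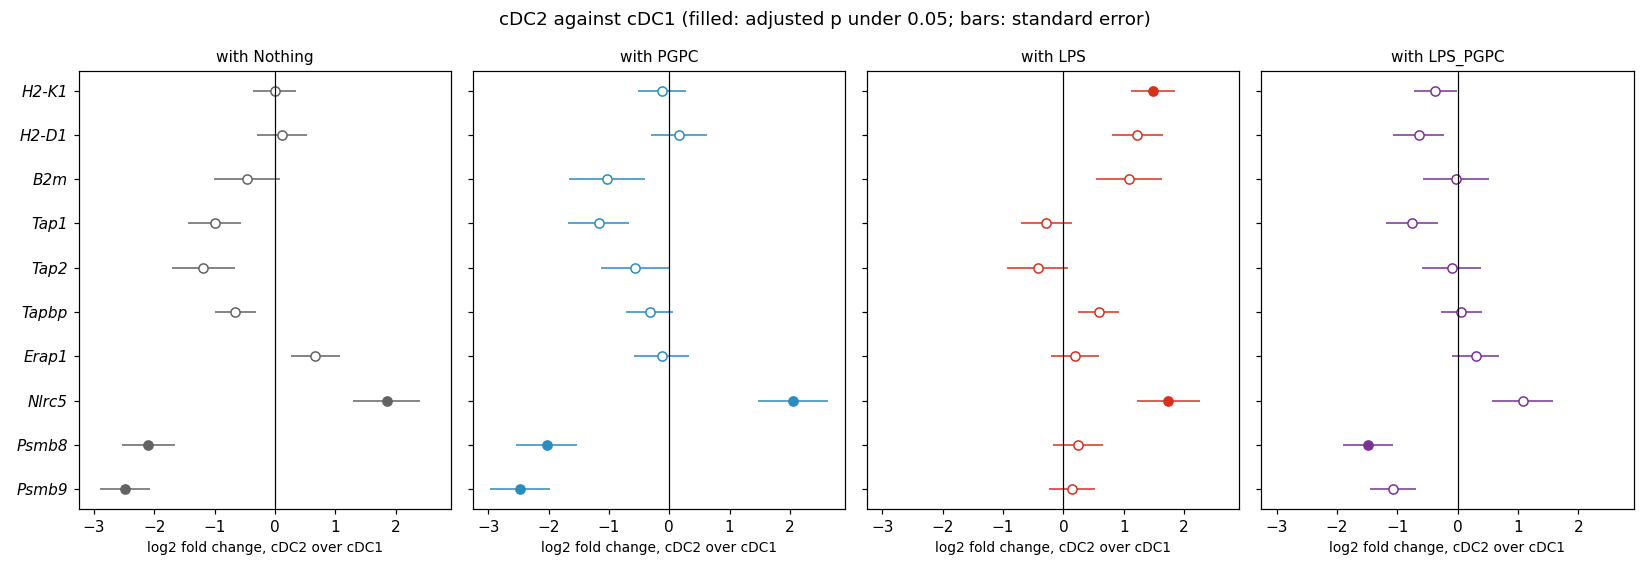
Log2 fold changes of cDC2 over cDC1 for the 10 genes under each treatment, with bars of 1 standard error and filled points for an edgeR adjusted p under 0.05. Psmb8 and Psmb9 lie at -2.03 to -2.48 with Nothing and with PGPC and near 0 with LPS, and Nlrc5 is positive under all 4 treatments.

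The same 3 genes were called between cDC2 and cDC1 with PGPC, where 12.1% of all tested genes were called. Psmb8 (-2.03 ± 0.51, edgeR adjusted p = 0.01) and Psmb9 (-2.47 ± 0.50, adjusted p = 0.00218) were lower in cDC2 and Nlrc5 (2.05 ± 0.58, adjusted p = 0.0234) was higher. Nlrc5 was not called without cDC2 replicate 5 (1.47, edgeR adjusted p = 0.279) or cDC1 replicate 1 (1.59, 0.0866), Psmb8 without cDC2 replicate 5 (-1.71, 0.166) and Psmb9 without cDC2 replicate 4 (-2.32, 0.0565). With LPS 2 of 10 were called, where 7.8% of all tested genes were called. H2-K1 was higher in cDC2 (1.49 ± 0.36, edgeR adjusted p = 0.00999), as was Nlrc5 (1.74 ± 0.52, adjusted p = 0.0386), while H2-D1 missed the threshold (1.22 ± 0.42, adjusted p = 0.076) and passed it without cDC2 replicate 4 (1.38, 0.0471) or with RLE scaling in place of TMM (1.33, 0.0494). Psmb8 (0.24 ± 0.41) and Psmb9 (0.14 ± 0.38) overlapped. H2-K1 was not called without cDC1 replicate 1 (1.32, edgeR adjusted p = 0.0725), nor Nlrc5 without cDC1 replicate 1 (1.48, 0.196), cDC1 replicate 2 (1.85, 0.0936) or cDC2 replicate 6 (1.63, 0.11). With LPS_PGPC 1 of 10 was called, where 7.14% of all tested genes were called. Psmb8 was lower in cDC2 (-1.49 ± 0.42, edgeR adjusted p = 0.0309), a call lost without cDC2 replicate 4 (-1.16, 0.161), cDC2 replicate 5 (-1.53, 0.0839) or cDC1 replicate 1 (-1.03, 0.187), and Psmb9 missed the threshold (-1.07 ± 0.38, adjusted p = 0.0873).

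The response to LPS itself differed between the cell types for Psmb8 and Psmb9. The difference of the log2 fold changes, cDC2 minus cDC1, was called for 2 of the 10 genes, while 1.33% of all tested genes were called. It was 2.34 ± 0.60 for Psmb8 (edgeR adjusted p = 0.0485) and 2.62 ± 0.56 for Psmb9 (edgeR adjusted p = 0.0152). In the library values untreated cDC2 stood below untreated cDC1, and the LPS groups overlapped. Of 19 other tested proteasome genes 18 had a positive difference (median 1.28, against 0.18 over all tested genes), and 1 was called. For H2-K1 (1.49 ± 0.51, edgeR adjusted p = 0.162), Tapbp (1.24 ± 0.49, adjusted p = 0.242) and B2m (1.55 ± 0.78, adjusted p = 0.379) the difference was positive without a call by edgeR, and for Nlrc5 it was -0.11 ± 0.73 (adjusted p = 0.992). DESeq2 called 3 of the 10, with H2-K1 beside Psmb8 and Psmb9 (H2-K1 1.51, adjusted p = 0.0376). The Psmb8 call was lost with the replicate block (2.25, edgeR adjusted p = 0.0845) and without the ribosomal RNA locus (2.35, 0.0563), and the Psmb9 call held in both. The Psmb9 call was lost without cDC2 LPS replicate 5 (2.30, edgeR adjusted p = 0.0525), cDC2 Nothing replicate 4 (2.54, 0.0627) or cDC1 LPS replicate 1 (2.54, 0.0509), and the Psmb8 call without any of 10 of the 12 libraries (adjusted p = 0.0587 to 0.17). For LPS_PGPC against PGPC 0 of 10 differences were called (1.99% of all tested genes were called), with 1 at an unadjusted p under 0.05, Psmb9 (1.41 ± 0.61, edgeR adjusted p = 0.247), and DESeq2 called 0. For PGPC against Nothing 0 were called (0.168%), with 0 at an unadjusted p under 0.05, and DESeq2 called 0. Marker levels differ between the untreated cell types as given above. There 4 of 5 conventional and 7 of 9 tested plasmacytoid dendritic cell markers were also lower in cDC2, and 0 were higher (6.14% of all tested genes were lower). Of 12 monocyte or macrophage markers 8 were higher and 1 was lower in cDC2 with LPS (5.59% of all tested genes were higher). With LPS_PGPC 8 were higher and 0 lower (4.6%). The part of the markers in the differences between the cell types was not tested.

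Levels can be ordered between genes only per length of exon. The length used was the union of all annotated exons of a gene, 860 bases for B2m, 3381 for Psmb8 and 3660 for Psmb9. It can exceed the length of the transcripts present, which lowers the value of such a gene. The order therefore depends on the length used. In untreated cDC2 the order in CPM per kilobase was H2-D1 (517 ± 53.1), B2m (398 ± 25.9), H2-K1 (91.7 ± 18.8), Tapbp (48.8 ± 13), Psmb8 (22.6 ± 5.18), Tap2 (15.2 ± 1.68), Tap1 (13.6 ± 4.52), Erap1 (9.61 ± 1.67), Nlrc5 (5.59 ± 2.70) and Psmb9 (3.37 ± 2.42). In untreated cDC1 it was B2m (550 ± 324), H2-D1 (480 ± 154), Psmb8 (98.7 ± 38.0), H2-K1 (92.7 ± 27.8), Tapbp (77.8 ± 29.0), Tap2 (34.5 ± 3.73), Tap1 (27.7 ± 5.94), Psmb9 (21.9 ± 3.35), Erap1 (6.07 ± 2.35) and Nlrc5 (1.76 ± 1.27), each SD of n = 3. Neighbours such as Tap2 and Tap1, Nlrc5 and Psmb9 in cDC2, or Psmb8 and H2-K1 in cDC1, do not differ beyond their spread. Across the 23 libraries the 45 pairs of the 10 genes had a median Pearson r of 0.646 in log2 CPM, from 0.123 for Erap1 with Psmb9 to 0.955 for Tap1 with Tap2, with 0.935 for Psmb8 with Psmb9, 0.925 for H2-K1 with H2-D1 and 0.207 for Nlrc5 with Psmb9. These describe libraries that share treatments, cell types and depth. Over the 8 group means the genes most like Nlrc5 were Clec4e (Pearson r 0.986), Oas1g (0.985), Gvin1 (0.982), Tgfbi (0.981) and C3 (0.981), and those most like the mean of the 10 genes were Supt5 (0.992), Phf21a (0.990), Rabgap1l (0.990), Pde4b (0.986) and Rnf114 (0.986).

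Other class I and class I-like genes rose as well. Of 20 listed genes 15 were tested, and with LPS against Nothing 10 of them rose in cDC2 (median log2 fold change 3.67), while 6 rose and 2 fell in cDC1 (median 1.68). Of all tested genes 5.82% rose in cDC2, and 8.58% rose and 9.36% fell in cDC1. The 2 that fell are near that last share. H2-Q7, a non-classical heavy chain, rose to 287 ± 80.5 CPM in cDC2 with LPS, against 8.72 ± 2.85 CPM with Nothing (5.17 ± 0.60, edgeR adjusted p = 5.9e-06), and to 42.8 ± 10.8 CPM in cDC1 with LPS, against 4.68 ± 2.79 CPM with Nothing (3.07 ± 0.53, edgeR adjusted p = 0.000236). H2-T22 (3.67 ± 0.49 in cDC2 and 2.08 ± 0.45 in cDC1) and Cd1d1, which presents lipids (3.57 ± 0.60 and 2.73 ± 0.55), also rose in both. H2-T23, which encodes the Qa-1 molecule, rose in cDC2 (2.84 ± 0.44, edgeR adjusted p = 0.000119) and had -0.19 in cDC1, and its difference between the cell types was called (3.03 ± 0.60, edgeR adjusted p = 0.0112). Like Psmb8 and Psmb9 it was lower in untreated cDC2 (38.8 ± 20.6 CPM) than in untreated cDC1 (157 ± 113 CPM; -1.92 ± 0.43, edgeR adjusted p = 0.00492). In cDC1 the genes that fell were Fcgrt, the neonatal Fc receptor (-1.76 ± 0.52), and Hfe, which acts in iron uptake (-1.89 ± 0.56). H2-Q7 was also higher in cDC1 with LPS_PGPC than in cDC1 with LPS (1.93 ± 0.49, edgeR adjusted p = 0.0357). Values of near-identical genes among these, such as those of the H2-Q genes, are uncertain between copies.

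Among proteasome genes 19 of 20 were tested. With LPS 5 rose in cDC2 (5.82% of all tested genes rose) and 2 in cDC1, near the share of all tested genes there (8.58%), with medians of 0.90 and -0.18. Those that rose in cDC2 were Psme1 (2.56 ± 0.41) and Psme2 (3.16 ± 0.60), the chains of the PA28 activator, Psmb10 (2.69 ± 0.54), the remaining inducible catalytic subunit, and the structural subunits Psma5 (1.66 ± 0.43) and Psma6 (1.62 ± 0.45). In cDC1 they were Psme3 (1.61 ± 0.47), a nuclear relative of PA28, and Psma6 (1.29 ± 0.43). Psme1 was lower in untreated cDC2 (48.2 ± 6.77 CPM) than in untreated cDC1 (210 ± 51.9 CPM; -2.10 ± 0.41, edgeR adjusted p = 0.00167), as were 6 other proteasome genes, and its LPS response differed between the cell types (2.32 ± 0.56, edgeR adjusted p = 0.0326). The constitutive catalytic subunits Psmb5 (0.76 in cDC2 and -0.28 in cDC1), Psmb6 (0.83 and -0.14) and Psmb7 (0.67 and -0.53) were not called with LPS.

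Of 16 genes for peptide loading, trimming and the endoplasmic reticulum 1 rose with LPS in cDC2 and 2 rose and 1 fell in cDC1, with medians of 0.11 and 0.08. These counts are near the shares of all tested genes (5.82% rose in cDC2, and 8.58% rose and 9.36% fell in cDC1). Tapbpl, which encodes the peptide editor TAPBPR, rose in cDC2 (2.34 ± 0.51, edgeR adjusted p = 0.00316) and in cDC1 (1.59 ± 0.47, edgeR adjusted p = 0.0201). Tpp2, a cytosolic peptidase, rose in cDC1 (1.42 ± 0.46) and Erp29, a chaperone, fell there (-1.53 ± 0.43). The chaperones Calr (0.44 in cDC2 and -0.16 in cDC1), Canx (0.50 and 1.20) and Pdia3 (0.12 and -0.65) were not called. Of 17 cross-presentation genes 1 rose and 1 fell with LPS in cDC2, and 3 rose and 1 fell in cDC1, against the same shares of all tested genes, with 2.7% falling in cDC2. Cybb, a subunit of the phagosomal NADPH oxidase, rose in cDC1 (2.55 ± 0.53, edgeR adjusted p = 0.00146), and the scavenger receptor Cd36 fell in cDC2 (-2.75 ± 0.53, edgeR adjusted p = 0.000961).

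Of 21 regulators of class I genes and of their inducers 19 were tested, and with LPS 6 rose in cDC2, while 6 rose and 1 fell in cDC1. Of all tested genes 5.82% rose in cDC2, and 8.58% rose and 9.36% fell in cDC1, so the 1 that fell is not above that share. Relb, an NF-kB subunit, rose by 2.98 ± 0.49 in cDC2 and by 4.75 ± 0.52 in cDC1, Stat2 by 3.12 ± 0.67 and 2.09 ± 0.64, and Ciita, the class II transactivator, by 3.00 ± 0.59 and 2.2 ± 0.55. Irf9 (2.30 ± 0.50) and Rfx5, a subunit of the factor that binds the X box (2.82 ± 0.91), rose in cDC1, and Rela (1.70 ± 0.45) rose in cDC2. Irf1, an interferon-induced activator of class I pathway genes, had 114 ± 34.3 CPM in cDC2 with LPS, against 17.3 ± 11.8 CPM with Nothing (2.51 ± 0.45, edgeR adjusted p = 0.00045), and 74.8 ± 15.7 CPM in cDC1 with LPS, against 80.9 ± 19.8 CPM with Nothing (-0.12, not called). Its difference between the cell types was called (2.62 ± 0.60, edgeR adjusted p = 0.0233), and it was lower in untreated cDC2 than in untreated cDC1 (-2.02 ± 0.44, edgeR adjusted p = 0.00384). Irf8, a cDC1 lineage factor, fell in cDC1 with LPS (-1.91 ± 0.44) and was lower in untreated cDC2 than in untreated cDC1 (-3.53 ± 0.47, edgeR adjusted p = 5.53e-05). Irf2, Rfxank, Creb1, Atf1, Nfya, Nfyb, Nfyc, Nfkb1, Ifnar1 and Ifngr1 were not called with LPS in either cell type. Ifnb1, the interferon beta gene, held at most 1 count in any group.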

How the data were processed

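The study measured RNA of cultured bone marrow dendritic cells. Per the labels' protocols, RNA was extracted with an RNeasy Plus Micro kit, input was set to the RNA of about 2000 cells, cDNA was made by Smart-Seq2 and Nextera XT libraries were read paired end on a NextSeq. Per the submitters' processing notes, the authors used bcl2fastq 2.2, RSEM and the genome build GRCm38. For RSEM's version, its aligner and the annotation, nothing is given in the sources used here. The deposited table holds RSEM expected counts per gene symbol, estimates that divide a read between the genes it matches. Of its values above 0, 21% are not whole. The protocol marks no strand.

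Expected counts were rounded to whole numbers. Of 36 libraries 23 were fitted together (edgeR 4.0.16 in R 4.3.3, robust quasi-likelihood fit, TMM scaling, 8 group means), without the 12 alum libraries and replicate 6 of cDC2 with PGPC. Genes passed filterByExpr by group with a minimum count of 10 and a minimum total of 15. Replicate numbers were not used as a block. From this fit came 16 comparisons, 4 of them differences of a treatment effect between cDC2 and cDC1. P-values were adjusted by Benjamini-Hochberg over all 12463 genes, and SE is the log2 fold change divided by the square root of F. Library totals set the precision, and Spearman rho over genes was 0.824 to 0.961 between replicates. In counts simulated for LPS against Nothing in cDC1 (11981 genes), 26 of 94 genes changed 4-fold and 73 of 98 changed 16-fold were recovered.

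Alternatives were median-ratio (RLE) scaling, no filter, a replicate block, DESeq2 1.42.0, all 36 libraries, removal of the ribosomal RNA locus, and each library left out in turn. Positions are from GENCODE M21 and promoters from RefSeq. The 10 genes, the other gene lists and the tests were chosen with earlier results of these data known. The named genes are all 10, the regulators, of which 1 result is not reported here, and up to 4 genes of each other list with the smallest adjusted p in a comparison. Psmb5, Psmb6, Psmb7, Calr, Canx and Pdia3 were named after their values were seen.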

Additional observations from a re-analysis of the deposited data

Results flagged for a closer look

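For Psmb8 and Psmb9 the effect of LPS against Nothing differed between cDC2 and cDC1 by a test of the difference itself. The log2 fold change was 2.34 higher in cDC2 for Psmb8 (edgeR adjusted p = 0.0485) and 2.62 higher for Psmb9 (edgeR adjusted p = 0.0152). The log2 fold changes were 2.68 in cDC2 and 0.34 in cDC1 for Psmb8, and 2.78 in cDC2 and 0.16 in cDC1 for Psmb9. Of 19 other tested proteasome genes 18 also had a positive difference (median 1.28, against 0.18 over all tested genes), and 1 was called. The Psmb9 call was lost without cDC2 LPS replicate 5 (2.30, edgeR adjusted p = 0.0525), cDC2 Nothing replicate 4 (2.54, 0.0627) or cDC1 LPS replicate 1 (2.54, 0.0509). The Psmb8 call was lost without any of 10 of the 12 libraries, with the replicate block (2.25, edgeR adjusted p = 0.0845) and without the ribosomal RNA locus (2.35, 0.0563). In untreated cells the summed level of 12 monocyte or macrophage markers was 2384 to 3332 CPM in cDC2 and 847 to 1153 CPM in cDC1, and the ribosomal RNA locus took 28.9 to 37.6% of counts in cDC2 and 41.3 to 72.4% in cDC1. The part of these in the difference was not tested.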

How the results depend on the processing

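No result changed direction with its call under any alternative. RLE scaling moved no count of called genes among the 10 by over 1.5 times. Without the filter LPS against Nothing in cDC1 had 3 calls. DESeq2 called 2 of the 10 between cDC2 and cDC1 with LPS_PGPC, and 1 in the difference between the cell types in LPS_PGPC against LPS. The difference between the cell types in LPS against Nothing had 1 call, that of Psmb9, with the replicate block, 1 (Psmb9) without the ribosomal RNA locus and 1 (Psmb9) without that locus and CT010467.1, a setting chosen after seeing the data. There Psmb8 had 2.25 (edgeR adjusted p = 0.0845), 2.35 (0.0563) and 2.18 (0.0734). With all 36 libraries 0 of the 10 genes were called in any comparison, where the coefficient of variation was 0.833, against 0.545 for the 23 libraries, and 11482 genes were tested.

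Leaving out each library in turn gave 2 to 4 calls in LPS against Nothing in cDC1, 0 to 2 in LPS_PGPC against LPS in cDC1 and 1 to 6 in LPS_PGPC against PGPC in cDC2. It gave 1 to 3 between cDC2 and cDC1 with PGPC, 0 to 3 with LPS, 0 to 1 with LPS_PGPC and 2 to 3 with Nothing. The difference between the cell types in LPS against Nothing had 0 to 2 calls. Counts were 7 to 9 in LPS against Nothing in cDC2 and 7 to 8 in LPS_PGPC against PGPC in cDC1. The cause of these moves was not tested, beyond that each fit has fewer libraries.

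Libraries of a cell type share replicate numbers, and whether the numbers pair them is not known. The labels do not say so, and not every correlation was over 0.1. Correlations of same-numbered libraries' deviations from their group means ran from -0.188 to 0.52 in cDC2 (median 0.0043, against -0.0041 for unlike numbers) and from -0.0413 to 0.176 in cDC1 (median 0.0484, against -0.03 for unlike numbers). Of 23 libraries, 14 correlated best with their own number, a hint from the data and not the design. With the replicate block the 10 genes had 8 calls in LPS against Nothing in cDC2, 4 in LPS against Nothing in cDC1 and 7 in LPS_PGPC against PGPC in cDC2. No paired analysis was possible between cDC2 and cDC1 because they share no replicate numbers. With 2 or 3 libraries a group and totals down to 243870 counts, the test misses many changes of 4-fold.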
